A study of Homo sapiens with 2 samples.

Results

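The integrated stress response and the cytosolic tRNA synthetases were followed in TE-1 cells, an established human oesophageal cancer line, that carried either the empty pcDNA3.1 vector or the vector with PAX2. The group consists of 39 genes, taken by their gene name in the array's annotation: 18 tRNA synthetases and 21 stress factors. They were represented by 64 of the 45033 features, 30 for the synthetases and 34 for the stress factors, and by 39 of the 23619 genes on the array. Both cultures were transfected with plasmid and were harvested 24 h later, so that transfection itself was shared by control and PAX2 cells. Each condition was hybridised to 1 Cy3 array, and the labels give no second culture. No difference below therefore has a replicate check or a p-value. The question put by the study was which genes PAX2, a paired-box transcription factor of the developing kidney, activates.

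A tRNA synthetase joins an amino acid to its tRNA, and uncharged tRNA that builds up when an amino acid is short activates the kinase GCN2 (EIF2AK4). GCN2 and the endoplasmic reticulum (ER) kinase PERK (EIF2AK3) both phosphorylate the initiation factor eIF2, which lowers general translation and favours translation of the ATF4 mRNA. ATF4 then induces genes of amino acid synthesis, many tRNA synthetases and the pro-death factor CHOP (DDIT3). The unfolded protein response of the ER adds the sensors IRE1 (ERN1), which splices the XBP1 mRNA, and ATF6, which is cleaved to a transcription factor. Much of this signalling runs through phosphorylation, splicing, cleavage and translation. An array of total RNA reads only the mRNA levels.

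The DNA element through which ATF4 acts with a C/EBP partner, the C/EBP-ATF response element, is shown first because it is a feature that several of these genes share apart from their expression. RefSeq promoter windows (build GRCh38.p14, 250 bases before to 50 bases after a start) were found for 33 of the 39 genes. The letters TGATGNAA, searched on both strands, were present in 10 of the 33 (30.3%), against 4.46% of the 27305 genes with a window. They were found in 7 of 14 synthetases with a window (AARS, CARS, GARS, IARS, MARS, NARS and TARS) and in 3 of 19 stress factors (ASNS, CEBPG and HERPUD1). The 6 matches that lay wholly upstream with flanking bases are printed 5′ to 3′ on the strand of the gene, with the match in capitals.
ASNS, chr7:97872443-97872502, minus strand: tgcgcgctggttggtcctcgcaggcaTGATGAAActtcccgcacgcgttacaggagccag
CEBPG, chr19:33374045-33374104, plus strand: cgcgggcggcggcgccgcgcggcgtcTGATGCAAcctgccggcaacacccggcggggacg
HERPUD1, chr16:56931940-56931999, plus strand: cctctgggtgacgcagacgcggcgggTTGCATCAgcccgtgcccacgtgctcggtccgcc
AARS, chr16:70289660-70289719, minus strand: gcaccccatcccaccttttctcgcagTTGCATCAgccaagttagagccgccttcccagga
GARS, chr7:30594819-30594877, plus strand: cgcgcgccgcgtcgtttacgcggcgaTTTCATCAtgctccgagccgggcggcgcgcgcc
IARS, chr9:92293698-92293736, minus strand: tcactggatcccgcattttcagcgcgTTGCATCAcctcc

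The match read forward in ASNS and CEBPG and on the opposite strand in the other 4. It began 68 bases before the start in ASNS, the asparagine synthetase gene, and 187 bases before it in AARS, the alanine enzyme. A match of letters is a description and does not show binding. The 10 genes with the letters had a median log2 difference between the arrays of -0.07 (PAX2 minus control), with 2 above 0. The 23 genes with a window but without the letters had a median of -0.06, with 10 above 0.

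Elements of the ER branches were rarer among the members and among all genes, and their patterns fix more letters than TGATGNAA. The ER stress response element, CCAAT followed after 9 bases by CCACG, was searched on both strands. It was found in 1 of the 33 genes (3.03%), XBP1, against 0.0916% of all genes. The unfolded protein response element TGACGTGG was found in CARS alone (3.03%), after its start, against 0.927% of all genes. Each of these member shares rests on 1 gene. No match of one motif overlapped a match of another. The XBP1 element is printed with the match in capitals.
XBP1, chr22:28800577-28800647, minus strand: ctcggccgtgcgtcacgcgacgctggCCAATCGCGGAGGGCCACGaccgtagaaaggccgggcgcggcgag
XBP1 itself had a difference of 0.02 on the log2 scale.

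The values are intensities summarised by the submitters with RMA, and each difference below is the log2 value of the PAX2-labelled array less that of the control, averaged over the features of a gene. Genes were tested whose mean was no lower than that of the median feature (205 on the control and 210 on the PAX2-labelled array) on at least 1 array. All 39 members passed, and 11636 genes passed in all. The random-sequence probes stood at 20.6 and 19.3. The single PAX2 feature stood beside them, at 22.2 on the control and 22.1 on the PAX2-labelled array. PAX2 expression was therefore not visible in these data, and the label of the PAX2-labelled array could not be checked by its own gene. Of 15 squamous markers 7 were tested (KRT14, KRT17, SFN and TRIM29 among them), while TP63, SOX2 and DSG3 were below the filter. Of 8 leukocyte markers 1 (CD68), of 6 endothelial and 8 kidney markers none, and of 8 fibroblast markers 3 were tested. On these bulk arrays fewer cells with a transcript and less transcript per cell cannot be told apart.

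No member differed by 1.5-fold between the arrays. Of all tested genes 4.5% were higher and 3.21% lower by that factor on the PAX2-labelled array, and 1.13% and 1.16% passed 2-fold in these directions. The brightest quartile of the tested genes held 19 of the 39 members, and there the shares past 1.5-fold were 1.27% higher and 0.378% lower. At a lower limit of 0.32 on the log2 scale, 3 members were higher (PHGDH, ATF5 and VARS) and 4 were lower (PSAT1, PSPH, SEL1L and CEBPG), which is 7.69% and 10.3% of the 39, against 14.7% and 9.5% of all tested genes. Within that quartile the members past this lower limit were PHGDH and VARS, higher, and PSAT1, lower, against 8.32% and 4.88% of the genes there. These calls depended on the processing. ATF5 and VARS fell short of the lower limit after centring (0.31 and 0.30), and CEBPB passed it (-0.35). The same 3 genes changed sides of the limit under quantile normalization and loess. Without their dim features, described below, PSPH, SEL1L and CEBPG stood at -0.23, 0.04 and 0.11. An offset of 64 left SEL1L and CEBPG short of the limit (-0.13 and -0.22). With the brightest feature of each gene ATF5, PSPH, SEL1L and CEBPG fell short. ERN1 (-0.60) then passed the limit, and SHMT2 (0.32) just passed it. The median difference of the 39 members was -0.06 and that of all tested genes 0.02. Of the members 13 lay above 0 and 26 below, and of all tested genes 53.5% lay above 0.

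**Figure D1:**
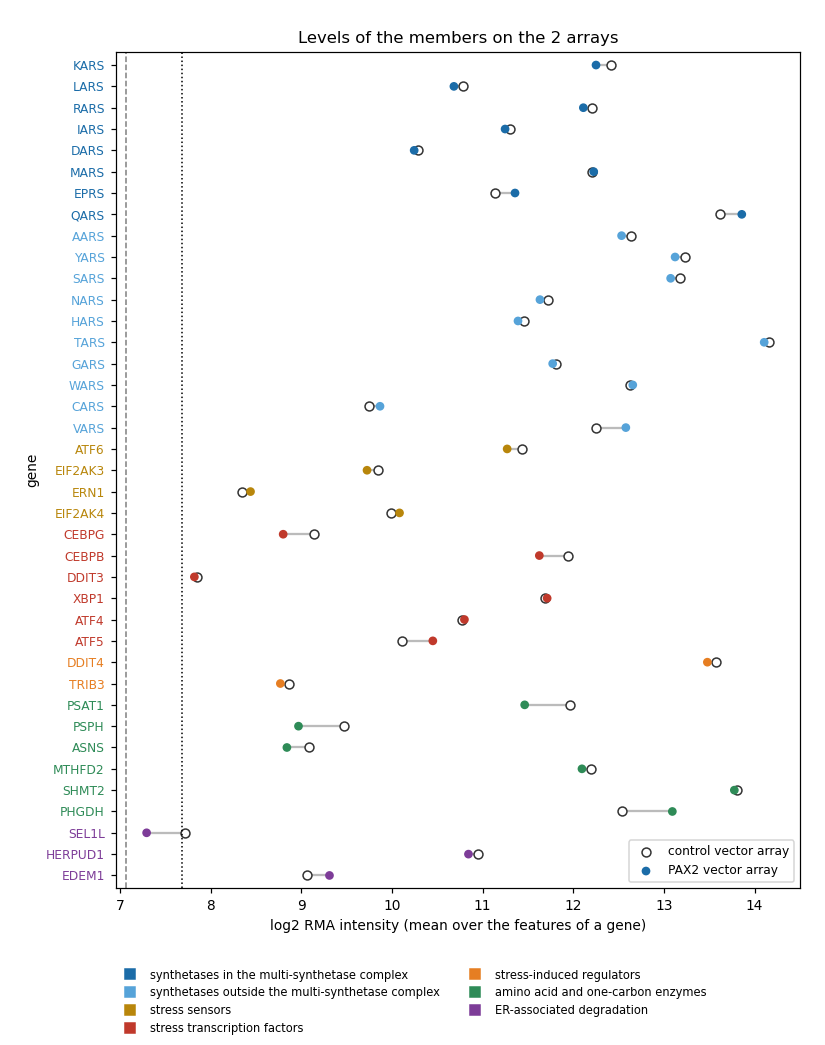
Log2 RMA intensity of the 39 genes (horizontal axis) on the control array (open circles) and the PAX2-labelled array (filled circles), 1 gene per line, coloured by role. The dotted line marks the control array's median feature (7.68) and the dashed line the upper limit of the silent olfactory receptor genes there (7.07); the circles of most genes touch, and the widest gaps are those of PHGDH, PSAT1, PSPH and SEL1L.

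The tRNA synthetases were well above background and nearly equal on both arrays. Their median difference was -0.06, with a range from -0.16 (KARS) to 0.33 (VARS), and 17 of 18 differed by less than 0.32, against 75.8% of all tested genes and 86.8% of those in the brightest quartile. Of the 18, 12 belonged to that quartile. Their 30 features gave the same median as the genes, -0.06, with 10 features above 0 and 20 below. Apart from VARS, no enzyme differed by more than 0.24 in size.

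VARS, the valine enzyme, had the largest difference of the synthetases. In its single feature the intensity was 4860 on the control and 6124 on the PAX2-labelled array (0.33 on the log2 scale, 1.26-fold higher). Among the genes of the same decile of brightness, 12.6% differed by at least as much in either direction.

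Of the 8 synthetases that sit in the multi-synthetase complex, 3 lay above 0 and 5 below, with a median of -0.05. QARS, the glutamine enzyme, had an intensity of 12580 on the control and 14862 on the PAX2-labelled array (0.24). EPRS, a fused enzyme for glutamate and proline, had 2258 and 2625 (0.22). These were the highest differences of the complex, each from 1 feature. KARS, the lysine enzyme of cytosol and mitochondria, was the lowest at -0.16, with differences of -0.21 and -0.11 in its 2 features. LARS, the leucine enzyme and a leucine sensor, had differences of -0.23, -0.05 and -0.02 in its 3 features. MARS (methionine) was at 0.01, DARS (aspartate) at -0.04, IARS (isoleucine) at -0.06 and RARS (arginine) at -0.09.

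The 10 synthetases outside the complex had a median of -0.06, with 3 above 0. TARS, the threonine enzyme, had an intensity of 18316 on the control and 17638 on the PAX2-labelled array (-0.05). WARS, the tryptophan enzyme, which interferon gamma also induces, had 6331 and 6458 (0.03). The serine enzyme SARS was the member with most features, and its 4 differences were -0.24, -0.14, -0.11 and 0.08. CARS, the cysteine enzyme, had features on both sides of 0, with -0.13 in the brightest and 0.14 and 0.36 in the other two. AARS (alanine) and YARS (tyrosine) both stood at -0.11, NARS (asparagine) at -0.08, HARS (histidine) at -0.06 and GARS (glycine) at -0.04.

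Synthetases fall into structural classes with unrelated catalytic folds. All 8 members of class II (AARS, DARS, GARS, HARS, KARS, NARS, SARS and TARS) were below 0, between -0.16 and -0.04, with a median of -0.07. FARSA and FARSB, subunits of the phenylalanine enzyme, which is also of class II and not among the members, were above 0 (0.09 and 0.05). Of the 10 members counted as class I 6 were above 0, with a median of 0.02 that turned to -0.01 after centring and -0.002 after quantile normalization; EPRS was counted there, although its proline part is of class II. Among all tested genes 46.5% were below 0. Every one of the 8 class II values is smaller in size than the SD of 0.33 that a single feature showed around its gene's mean over 6562 tested genes with several features. That SD is pooled over dim and bright genes. The difference between the classes has no test with 1 array per group.

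The enzymes next to these in the same process did not differ by 1.5-fold either. Of all tested genes 4.5% were higher and 3.21% lower by that factor, so the absence of such genes from lists this short says little. FARSA, FARSB and the complex scaffolds AIMP1, AIMP2 and EEF1E1 were all tested, from -0.18 (AIMP1) to 0.09 (FARSA), with a median of 0.05 that turned to -0.12 with the brightest feature of each gene. All 17 mitochondrial synthetases were tested, and 7 lay above 0 and 10 below, with a median of -0.06 that turned to 0.06 with a filter at the 75th percentile. SARS2 was the highest (intensity 2244 on the control and 2938 on the PAX2-labelled array, 0.39) and WARS2 the lowest (295 and 222, -0.41).

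**Figure D2:**
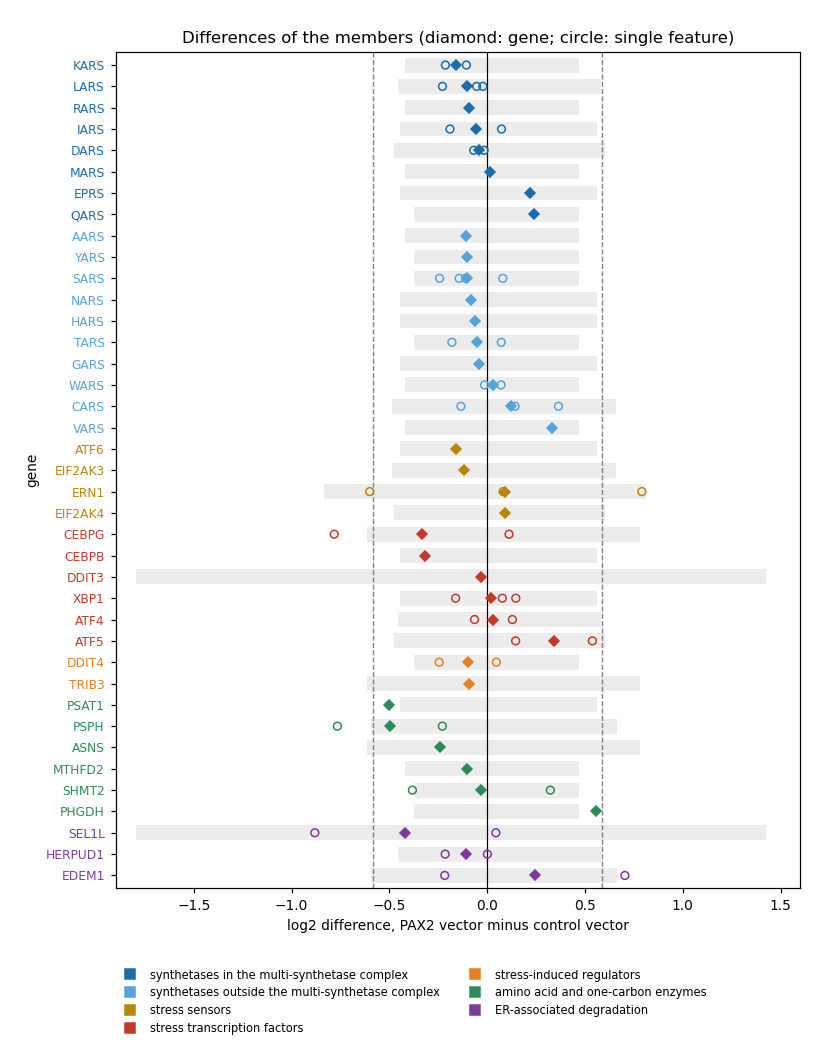
Log2 difference (PAX2 minus control) for each of the 39 genes (diamonds) and, for genes with several features, for each feature (open circles), with 1 gene per line, coloured by role. Grey bars span the central 95% of all tested genes in the same decile of brightness and dashed lines mark 1.5-fold; all diamonds lie inside the dashed lines, PHGDH and PSAT1 lie outside their grey bars, and the circles of ERN1, EDEM1, CEBPG and SEL1L spread widely.

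The 21 stress factors had a median difference of -0.10, from -0.50 (PSAT1) to 0.55 (PHGDH), with 7 above 0 and 14 below. Of these, 15 (71.4%) differed by less than 0.32, against 75.8% of all tested genes. Only 7 of the 21 were in the brightest quartile, where the spread of all genes is narrower.

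The stress sensors were level. EIF2AK3, which encodes the ER kinase PERK, had an intensity of 918 on the control and 847 on the PAX2-labelled array (-0.12). EIF2AK4, the amino acid sensor GCN2, had 1018 and 1086 (0.09). ATF6 had 2763 and 2472 (-0.16). Each of these was measured by 1 feature, and between 46.9% and 68.6% of the genes of like brightness differed by at least as much.

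ERN1, the sensor IRE1, averaged 0.09 over 3 features that did not go together. The transcript feature that spans the gene (NM_001433, HG18 chromosome 17, 59474491 to 59561208) read 171 on the control and 181 on the PAX2-labelled array (0.08). The feature AK055561, placed at 59559843 to 59561911, had 341 and 589 (0.79). The feature NM_152461, placed at 59559843 to 59561208, had 596 and 393 (-0.60). The last of these is the brightest, and with it alone ERN1 would be 1.52-fold lower, the only member past 1.5-fold under that choice. Its accession had no match in the reference gene table. Both short features lie at the upper end of the coordinates of the spanning feature, and AK055561 runs past that end.

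The transcription factors of the response also showed no shared direction, with 3 of 6 above 0 and a median of -0.005. ATF4, the central factor, had intensities of 7731 on the control and 7393 on the PAX2-labelled array in its brighter feature (-0.06). Its dimmer feature had 393 and 430 (0.13), so its mean of 0.03 was within the spread of its features. DDIT3, which encodes CHOP, had 231 and 226 (-0.03), just above the filter. XBP1 had 3308 and 3356 on average, with differences of -0.16, 0.08 and 0.15 in its 3 features. The deposited files do not place the probes, so spliced and unspliced XBP1 mRNA could not be told apart.

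ATF5, an ATF4 relative that is also translated under stress, was the factor with the largest difference upward. Its feature BC005174 had an intensity of 834 on the control and 1210 on the PAX2-labelled array (0.54), and its feature NM_012068 had 1465 and 1620 (0.15). Both features were thus above 0, and the mean was 0.34 (1.27-fold). Of the genes in its decile of brightness 18% differed by at least as much.

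The C/EBP partners CEBPB and CEBPG had means below 0. CEBPB had an intensity of 3941 on the control and 3161 on the PAX2-labelled array in its 1 feature (-0.32), and 18.0% of the genes in its decile of brightness differed by at least as much. CEBPG averaged -0.34, but only its dim feature was lower: NM_001806 had 207 and 120, and BC007582 had 1530 and 1653 (0.11). The value of 120 was within the range of the silent olfactory receptor genes (up to 142 on the PAX2-labelled array). Without that feature the difference of CEBPG was 0.11.

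TRIB3, a pseudokinase induced by ATF4 and CHOP, had an intensity of 466 on the control and 437 on the PAX2-labelled array (-0.09). DDIT4, an mTORC1 inhibitor also called REDD1, averaged 12237 and 11423 (-0.10), with differences of -0.25 and 0.05 in its 2 features. These regulators, induced by several kinds of stress, therefore differed less than the features of a gene differ from each other.

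The members with the largest differences lay in the serine pathway, and they went in opposite directions. PHGDH, which takes the first step from 3-phosphoglycerate, had an intensity of 5949 on the control and 8739 on the PAX2-labelled array (0.55, 1.47-fold higher; HG18 chromosome 1, 120056032 to 120088361). PSAT1, which takes the next step, had 4000 and 2826 (-0.50, 1.42-fold lower; chromosome 9, 80101878 to 80134829). Both were bright and each was measured by 1 feature. Of the genes in the same decile of brightness 1.63% differed by at least as much as PHGDH and 5.58% by at least as much as PSAT1. Whether these differences reflect more than the choice of the largest of 39 values was not tested.

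PSPH, which releases serine in the last step, averaged -0.50 over 2 unequal features. The feature NM_004577 had an intensity of 3229 on the control and 2755 on the PAX2-labelled array (-0.23). The feature AK126156, which covers only 56076417 to 56078385 of the gene's interval on chromosome 7, had 155 and 91.3 (-0.77), and the second value was within the silent range. Without that feature PSPH stood at -0.23. The reference table lists pseudogenes named after PSAT1 and PSPH, and whether their transcripts reach these probes was not tested.

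The enzymes downstream of serine and the asparagine enzyme were closer to 0. SHMT2, the mitochondrial enzyme that passes a carbon from serine to folate, averaged -0.03, from features that disagreed: BC013677 had 11613 and 8910 (-0.38) and NM_005412 had 17690 and 22121 (0.32). MTHFD2, the next mitochondrial folate enzyme, had 4703 and 4379 (-0.10). ASNS, a standard readout of the amino acid response, had 542 on the control and 459 on the PAX2-labelled array (-0.24; HG18 chromosome 7, 97319378 to 97339719), and 40.9% of the genes of like brightness differed by at least as much. Of the 6 enzymes in this group 5 were below 0, with a median of -0.17, and PHGDH was the exception. With a filter at the 75th percentile, which kept 4 of them, the median was -0.07. With the brightest feature of each gene SHMT2 stood at 0.32, and 2 of the 6 were above 0.

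The ER degradation genes gave no common direction. HERPUD1, an ER membrane protein of the degradation complex, averaged 1981 and 1839 (-0.11). EDEM1, which marks misfolded glycoproteins for disposal, averaged 0.24 from features at 0.70 (BC019088, 336 on the control and 548 on the PAX2-labelled array) and -0.22 (NM_014674, 857 and 737). SEL1L, the partner of the ubiquitin ligase HRD1, averaged -0.42 and passed the filter on the control array only. That value came from a feature in the silent range on both arrays (NM_005065, 43 and 23.3, -0.88). Its other feature, AF052059, had 1025 and 1057 (0.04), and without the dim feature SEL1L stood at 0.04.

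**Figure D3:**
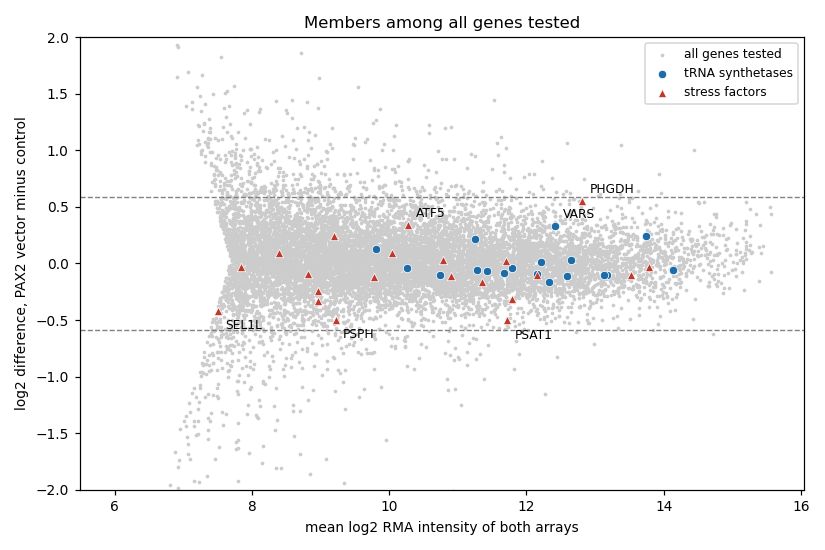
Log2 difference (PAX2 minus control) against mean log2 intensity for the 11636 tested genes (grey), the 18 synthetases (blue circles) and the 21 stress factors (red triangles); dashed lines mark 1.5-fold and 50 grey genes lie beyond the axis limit of 2. The synthetases lie in the bright, narrow part of the cloud, and PHGDH and PSAT1 are the bright members nearest to the dashed lines.

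Agreement between features of a gene sets how finely these values can be read. Of the 39 members 20 had 1 feature and 19 had several. Among those 19, the features of 14 lay on both sides of 0, and those of 5 lay on one side (ATF5, PSPH, DARS, KARS and LARS). The SD of a single feature around its gene's mean was 0.35 over these 19 genes, against 0.33 over the 6562 tested genes with several features. Features of a gene share the RNA and the array, so this is a measurement spread and no replicate error. Differences below it, which include all those of the synthetases except that of VARS at its edge, are no larger than this pooled spread. The pooled spread takes in dim genes and was not computed for bright genes alone. Among tested genes the SD of the gene differences was 0.79 in the dimmest decile and 0.21 in the brightest. Whether the synthetases, most of them bright, exceed a spread of their own was therefore not tested.

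Of all tested genes 75.8% differed by less than 0.32, and further lists of these pathways lay on both sides of that share. It was 92.9% for the eIF2 list, 80% for the ATF4 and CHOP targets and 66.7% for the one-carbon enzymes. For the ER chaperones it was 75% and for the ER degradation genes 94.4%. Of 15 genes for eIF2, its exchange factor eIF2B, the other kinases and the phosphatase subunits, 14 were tested, 5 lay above 0 and the median was -0.03. EIF2B5, the catalytic subunit of eIF2B, was the highest (195 on the control and 281 on the PAX2-labelled array, 0.53), from features at 0.05 and 1.01; it passed the filter on the PAX2-labelled array only. EIF2B4 was the lowest (-0.25). PPP1R15A, the stress-induced phosphatase subunit GADD34, had a difference of 0.11 with both features above 0.

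Of 20 further target genes of ATF4 and CHOP, 15 were tested, with 9 above 0, 6 below and a median of 0.05 that turned to -0.04 with the brightest feature. By 1.5-fold, 4.5% of all tested genes were higher and 3.21% lower. STC2, a secreted glycoprotein induced by ER stress, was the only gene of this list past that factor. It averaged 1115 on the control and 700.2 on the PAX2-labelled array (1.59-fold lower, -0.67), and its features agreed at -0.71 and -0.64. SLC7A5, the leucine transporter LAT1, was the highest (23972 and 32377, 0.43), with features at 0.36 and 0.51. Its partner SLC3A2 had a difference of -0.20.

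Of 13 further serine, glycine and one-carbon enzymes 9 were tested, 5 lay above 0 and the median was 0.01, which turned to between -0.04 and -0.02 under centring, quantile normalization and loess and to -0.11 with the median feature. SHMT1, the cytosolic partner of SHMT2, was the highest at 0.36, with features from -0.01 to 0.97. GCAT, a mitochondrial enzyme of threonine breakdown, was the lowest (861 and 643, -0.42), with features at -0.50 and -0.35. None of these 9 passed 1.5-fold, against 4.5% of all tested genes higher and 3.21% lower.

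Of 26 ER chaperones and other unfolded protein response genes 24 were tested, with 13 above 0, 11 below and a median of 0.07. HSPA5, the main ER chaperone BiP, had 384 on the control and 416 on the PAX2-labelled array (0.12). This reading came from 1 feature of low signal, in decile 3 of brightness, and whether its probes report the transcript fully was not tested. MBTPS1, the protease that cleaves ATF6, was the highest at 0.43, with features from 0.16 to 0.95. CREB3L1, an ER-bound transcription factor, was the only one past 1.5-fold (229 and 144, 1.59-fold lower), from features at -1.24 and -0.09, and its level on the PAX2-labelled array was just above the silent range (142); it passed the filter on the control array only. Of 19 further ER degradation symbols, which stand for 18 genes, all 18 genes were tested, 11 lay above 0 and the median was 0.04, which turned to -0.08 with the brightest feature. DERL2 was the highest at 0.36 and SELENOS the lowest at -0.28. None of this list passed 1.5-fold, against 4.5% of all tested genes higher and 3.21% lower. DNAJC3, an inhibitor of the eIF2 kinases and an ER chaperone, stands in both the eIF2 list and the chaperone list at -0.08.

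**Figure D4:**
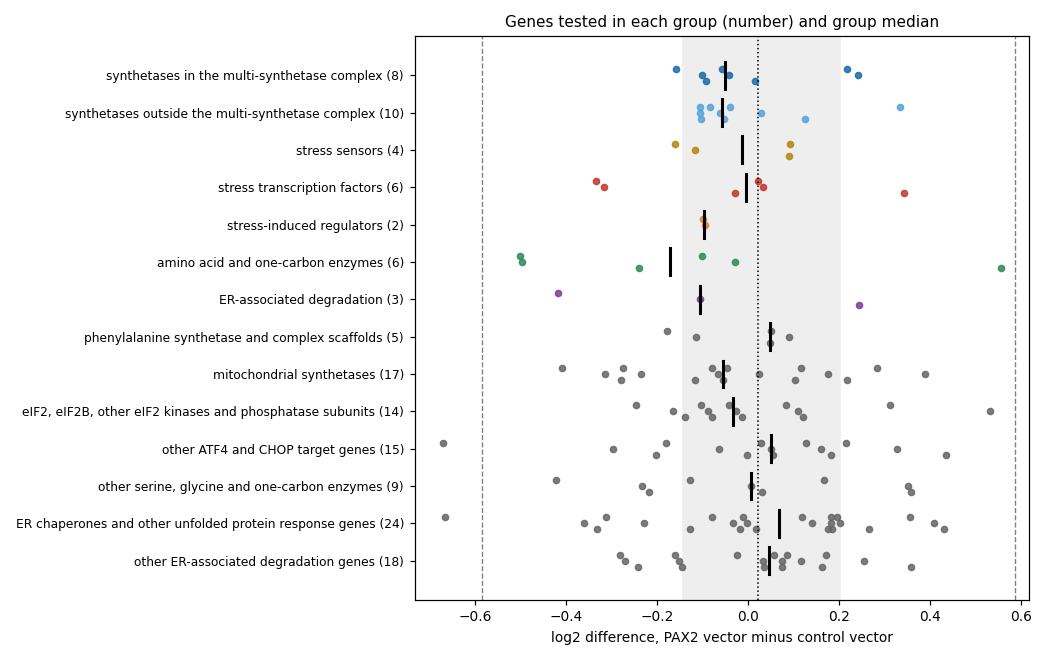
Log2 difference (PAX2 minus control) of every tested gene in the 7 role groups of the members (coloured) and in 7 lists of other genes of these pathways (grey), with the number of genes in brackets and the group median as a black bar. The grey band spans the middle 50% of all tested genes, from -0.14 to 0.20, and dashed lines mark 1.5-fold; of the group medians only that of the amino acid and one-carbon enzymes (-0.17) lies outside the band.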

How the data were processed

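Total RNA of TE-1 cells was measured on 2 one-colour NimbleGen arrays, 1 per group. The deposited intensities are on a linear scale and come from RMA, per the submitters' processing notes. How the arrays were background-corrected and scaled to each other, and with which version, is not given in those notes. Per the file headers, all 64 features of the members rest on 3 probes. The deposited series table repeats the same intensities.

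Features were joined by gene identifier (2086 without one were left out), named through the reference table (GRCh38.p14) or the file, and averaged as log2 intensity. HG18 coordinates are those of the file. No further normalization was applied. The silent range is the 95th percentile of 376 olfactory receptor genes (log2 7.07 and 7.15). Deciles of brightness were formed over tested genes. Python 3.11.15, pandas 2.3.3 and statsmodels 0.14.6 were used, and the gene averaging, thresholds and rescaling were tested on simulated data.

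The members, lists, motifs and thresholds were chosen with earlier results of these data known. Genes named are the members past 0.32 on the log2 scale, those with discordant features and the 3 branches' main genes, with ranges and examples of the rest, and per further list the highest and lowest gene; other examples were chosen after their values were seen. Alternatives were centring, quantile normalization, loess (fraction 0.3), an offset of 64, the brightest or median feature, other filters and thresholds, means, and, added after seeing the data, leaving out features in the silent range.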

Additional observations from a re-analysis of the deposited data

How the results depend on the processing

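No paired analysis was possible because only 1 array stands for each condition. The count of members past 1.5-fold was 0 in each direction, and it was 0 under centring, quantile normalization, loess, the offset and the median feature. The series table, no filter, the 75th percentile filter and a 2-fold threshold also gave 0, but could give nothing else. The series table repeats the same intensities, and all 39 members already passed the filter. The stricter filter and threshold can only remove members. The count was 3 higher and 4 lower at a limit of 0.32 on the log2 scale and 1 lower (ERN1) with the brightest feature. At the limit of 0.32, ATF5 and VARS dropped out and CEBPB came in under centring, quantile normalization and loess. PSPH, SEL1L and CEBPG dropped out without dim features. With the offset SEL1L and CEBPG dropped out. With the brightest feature ATF5, PSPH, SEL1L and CEBPG dropped out, and ERN1 and SHMT2 came in. The median of the synthetases was -0.057, and with a mean in place of the median it was -0.0032, which follows from VARS, QARS and EPRS at the upper end. It lay between -0.091 (centring) and -0.052 (brightest feature) otherwise. The median of the stress factors was -0.099, from -0.13 under centring, quantile normalization and loess to -0.030 without dim features, a setting added after seeing the data. Centring lowered every difference by 0.034. Of 312 recomputed member values 301 moved by less than the single-feature SD of 0.33 divided by the square root of the number of features of the gene. Part of this count was fixed in advance. The series table repeats the same intensities, and the shift by centring is smaller than this yardstick for every member. The 20 members with 1 feature could not move with the brightest feature, the median feature or without dim features. Signs turned in 10 of 39 members with the brightest feature (ATF4, CEBPG, SEL1L, EDEM1, ERN1, SHMT2, IARS, CARS, WARS and HERPUD1), in 4 after centring (MARS, WARS, ATF4 and XBP1) and in CEBPG and SEL1L without the 3 dim features. PHGDH lay between 0.52 and 0.55 and PSAT1 between -0.54 and -0.49 in all settings run. Each has 1 feature, so the settings that choose among features could not change them. The 8 class II members were below 0 in every setting run, but FARSA and FARSB of the same class were above 0 in the main setting. Most of these settings could not have turned the 8 signs. Centring lowered every difference, and quantile normalization and loess lowered all 8 as well. The choice of features could turn only SARS and TARS, whose features lie on both sides of 0. The class I median lay between -0.01 and 0.02, with a mean of 0.06. Medians of the further lists turned sign with the brightest feature (ATF4 and CHOP targets -0.043, ER degradation -0.083, phenylalanine enzyme and scaffolds -0.12), with the 75th percentile filter (mitochondrial synthetases 0.062) and with the median feature (one-carbon enzymes -0.11); the cause was not tested. With 1 array per group the number of arrays limits the precision, and low signal limits SEL1L, PSPH, CEBPG, ERN1 and DDIT3.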

Other observations

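Several inducible targets of the response were below the filter on both arrays and enter no comparison above. CHAC1, a glutathione-degrading enzyme, had log2 intensities of 7.48 on the control and 7.51 on the PAX2-labelled array. GDF15, a stress cytokine, had 7.53 and 7.34. These values lie between the silent range and the median feature. The hormone FGF21 (3.57 and 4.01), the folate enzyme ALDH1L2 (5.88 and 5.71) and the IRE1 target DNAJB9 (5.40 and 6.37) were within the silent range on both arrays, so no fold is given for them.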
